A study of Mus musculus with 17 samples.

Results

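Activated and naive B cells of mice that carry a knock-in of p52 were compared by RNA sequencing, in the 6 libraries of these cells out of 17 in the series. Members were the 3 activated and 3 naive libraries of the genotype p52ki, taken by the column names of the deposited count table. They were fitted alone, with every gene that passed a filter on low counts. The activated p52ki cells (replicates 2, 3 and 5) and the naive p52ki cells (the same replicate numbers) both came from the spleen and were sorted by flow cytometry. The other libraries used were activated and naive B cells of wild-type (WT) mice, 3 each, numbered 1, 3 and 4. The labels give the genotypes as p52ki and WT and do not describe the allele, the promoter that drives it, the age of the mice, a treatment or immunization, or the sorting gates of either population. The labels speak of pre-GC cells (GC, germinal centre) as well, and do not say how these relate to the activated cells. No label says that replicates came from separate mice, and every p-value therefore reflects only how these samples spread, which may be technical.

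p52 is the NF-kB subunit made by cutting the product of the Nfkb2 gene, and it binds kB sites in DNA as a dimer, commonly with RelB. The series title names a complex of p52 with ETS1, a transcription factor of the ETS family, whose members bind sites with a GGAA core. Naive follicular B cells circulate through B cell follicles and carry IgM and IgD. On activation by antigen and T cell help they divide, switch the constant region of their antibody heavy chain, and become germinal centre cells, memory cells or antibody-secreting plasma cells. Marginal zone B cells and B-1 cells are innate-like populations of the spleen and body cavities that react fast and make much IgM.

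Total counts were 10036347, 8857512 and 8029313 in activated replicates 2, 3 and 5, and 8592865, 8208782 and 9848870 in naive replicates 2, 3 and 5. Genes with at least 1 count numbered 19031 to 19672 in activated libraries and 18440 to 18909 in naive libraries. Rank correlation between libraries was 0.959 to 0.975 within activated cells and 0.971 to 0.983 within naive cells, and the main axis of variation, with 47.1% of the variance, put the 3 activated libraries on one side of the 3 naive ones. All libraries had the markers of B cells: the 10 markers together summed to 40100 to 51700 CPM in activated libraries and 41500 to 50200 CPM in naive libraries. In the main fit 0 of 10 were called different, where 3.48% of all genes were called, so this count says little. Cd74 was the largest part of each sum, at 22300, 30400 and 22900 CPM in activated replicates 2, 3 and 5 and 29800, 33900 and 27900 CPM in naive ones. Of the 10 changes 8 were positive and 2 negative, so like sums do not mean like levels of each marker. With the replicate number as a block 2 were called higher and 1 lower, among them Ms4a1, which encodes CD20 (adjusted p = 0.0114), and Cd22 (adjusted p = 0.0174), and DESeq2 and limma voom each called 1 higher and 1 lower. CPM, the usual short form for counts scaled to a common library size, are used for all levels. Immunoglobulin genes took 5.22%, 7.03% and 4.87% of counts in activated replicates 2, 3 and 5, and 3.02%, 3.49% and 2.91% in naive ones, without overlap.

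Activated p52ki cells differed from naive p52ki cells mainly by gains. Of 13603 genes tested with edgeR (quasi-likelihood fit, p-values adjusted by the Benjamini-Hochberg method), 473 or 3.48% were called at an adjusted p under 0.05. Of them 357 (2.62%) were higher in activated cells and 116 (0.853%) were lower. The median log2 change of all genes tested was -0.01, and 48.6% of the changes were positive. The 3 activated libraries all lay on one side of the 3 naive ones for 2609 genes (19.2%). Immunoglobulin variable segments made up 56 of the 357 higher genes, from 199 segments tested, and 0 segments were lower. With the replicate number as a block 900 genes were called, 556 higher and 344 lower, and 470 of the 473 were among them. The count was 235 without activated replicate 2, and 166 and 232 without naive replicates 2 and 5. A fit of all 17 libraries of the series, which include the germinal centre cells, called 18.

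**Figure D1:**
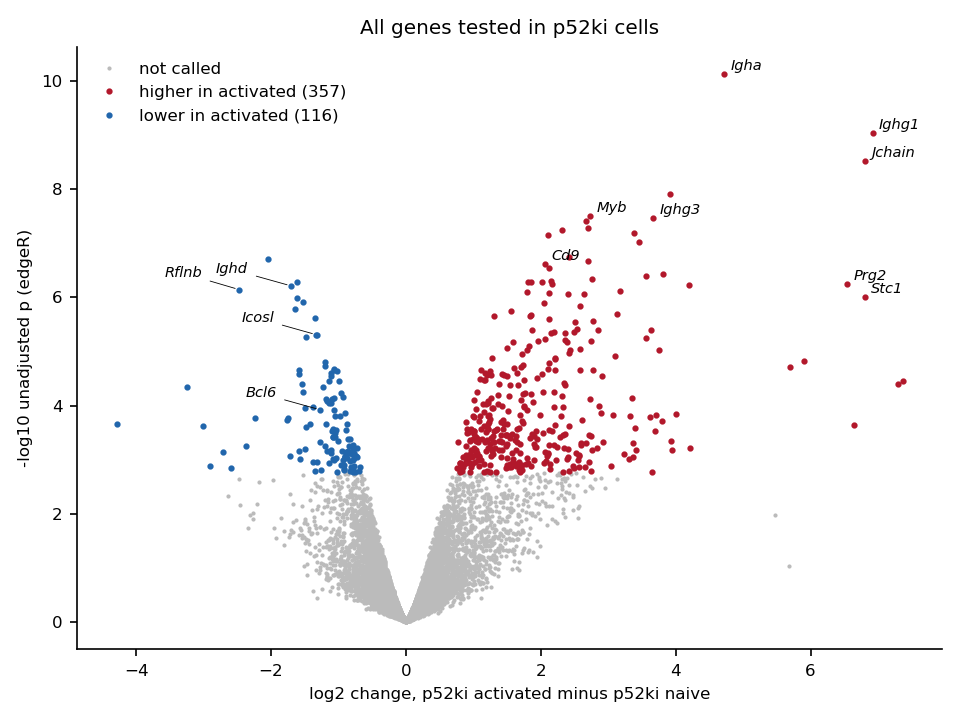
Each point is 1 of 13603 genes tested in p52ki cells, with the log2 change (activated minus naive) on the x axis and the -log10 of edgeR's unadjusted p on the y axis. Red points are the 357 genes called higher in activated cells and blue points the 116 called lower, with the immunoglobulin genes Igha and Ighg1 and the joining chain Jchain at the top.

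Genes that mark resting follicular B cells were lower in activated p52ki cells. Of 22 on the list of naive follicular genes, 9 fell and 1 rose, against 0.853% lower and 2.62% higher over all genes. The median log2 change was -0.57, against -0.01 over all genes. Fcer2a (chromosome 8, 3681737 to 3694175, GRCm38), which encodes CD23, the low-affinity IgE receptor of follicular B cells, was at 434, 476 and 438 CPM in activated replicates 2, 3 and 5, against 1377, 1342 and 1145 CPM in naive replicates 2, 3 and 5. Every activated library was far below every naive one, a 2.88-fold difference (log2 -1.52, SE 0.182, adjusted p = 0.000432). Ighd (chromosome 12, 113406604 to 113416324), the constant region of IgD, was at 1160.4, 1344 and 1323 CPM in activated cells and 4281, 4144 and 3984 CPM in naive cells. The groups were again apart (log2 -1.70, SE 0.192, adjusted p = 0.000287). Ccr6 (chromosome 17, 8236043 to 8257141), a chemokine receptor of naive and memory B cells, was at 44, 46.2 and 65.1 CPM in activated cells, against 169.7, 174 and 139 CPM in naive cells (log2 -1.64, SE 0.201, adjusted p = 0.000534). No activated library reached the lowest naive one. Others that fell were Ms4a4c, Il4ra, Cd55, Satb1 and the follicle-homing receptor Cxcr5 (log2 -0.77, adjusted p = 0.042). Lef1, a transcription factor of the Wnt pathway and of early B cells, went the other way, with 26.5, 24.6 and 32.9 CPM in activated libraries and 8.36, 7.2 and 7.76 CPM in naive ones (log2 1.84, SE 0.232, adjusted p = 0.000649). The complement receptor Cr2 (log2 -0.23, adjusted p = 0.69) and the homing receptor Ccr7 (log2 -0.08, adjusted p = 0.925), also on the list, did not pass the test, and both had libraries of the groups that overlapped. The count of 9 was 5 without activated replicate 2, 4 without naive replicate 2 and 5 without naive replicate 5. Bulk libraries cannot tell fewer cells of a type from less RNA per cell.

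Genes of marginal zone and B-1 cells were higher. Of 21 tested, 14 rose and 0 fell, against 2.62% higher and 0.853% lower over all genes, with a median log2 change of 1.22. Cd9 (chromosome 6, 125460266 to 125494791), a tetraspanin of marginal zone, B-1 and plasma cells, was at 95.3, 141 and 102 CPM in activated replicates 2, 3 and 5, against 27.8, 30.03 and 23 CPM in naive ones. The lowest activated library was well above the highest naive one, a 4.17-fold difference in the fit (log2 2.06, SE 0.214, adjusted p = 0.000203). S1pr3 (chromosome 13, 51408639 to 51422797), a sphingosine phosphate receptor found on marginal zone B cells, was at 103, 92.4 and 74.1 CPM in activated cells and 29.9, 29.3 and 32.5 CPM in naive cells (log2 1.55, SE 0.192, adjusted p = 0.000586). Cd1d1, which presents lipids to natural killer T cells, was at 228, 219 and 194 CPM in activated cells and 87.5, 84.3 and 85.5 CPM in naive cells (log2 1.31, SE 0.165, adjusted p = 0.000649). Its near-identical copy Cd1d2 can take or lose reads of it, so its level is uncertain. Zbtb32, a repressor of the secondary antibody response, was at 14.1, 12.9 and 10.2 CPM in activated libraries, against 2.06, 2.11 and 2.01 CPM in naive libraries (log2 2.59, SE 0.313, adjusted p = 0.000483). In none of these 4 genes did the groups overlap. The other 10 called were Bhlhe41, a regulator of B-1 cells, Fcrl5, Marcks, Pstpip2, Myof, Cd36, Ahr, Plac8, Mzb1 and Asb2. Fewer were called without naive replicate 2 (7) or naive replicate 5 (8). On the list linked to the transcription factor Tbx21 in age-associated B cells 4 of 9 rose (Zbtb32, Fcrl5, Zeb2 and Sox5), of which Zbtb32 and Fcrl5 are also on the list above. Tbx21 itself was at 3.01 ± 0.34 CPM in activated cells and 3.21 ± 0.706 CPM in naive cells (SD, n = 3 each; log2 -0.10, adjusted p = 0.947). Zeb2 and Sox5 were not called without activated replicate 2 (adjusted p = 0.122 and 0.241) or naive replicate 2 (adjusted p = 0.154 and 0.135) among others.

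Promoter windows of 3 of these genes are shown because the series concerns DNA binding by p52 and ETS1. They are RefSeq sequences on GRCm38.p6 that run from 250 bases before to 50 after a gene's start, 5′ to 3′ on the gene's strand. Capitals mark matches, on either strand, to GGG, any 3 bases and TTCC (a kB-type motif) or AGGAAG (an ETS-type motif); overlapping matches are joined. The window of Cd9, which rose, is chr6:125494711-125495010 on the minus strand and holds 1 kB match and 1 ETS match. That of Fcer2a, which fell, is chr8:3694125-3694424 on the minus strand, with 0 kB matches and 1 ETS match, and is the first listed of 3 windows of that gene. That of Ccr6, which fell, is chr17:8235793-8236092 on the plus strand, with 0 kB matches and 2 ETS matches, and is the first listed of 2.
Cd9: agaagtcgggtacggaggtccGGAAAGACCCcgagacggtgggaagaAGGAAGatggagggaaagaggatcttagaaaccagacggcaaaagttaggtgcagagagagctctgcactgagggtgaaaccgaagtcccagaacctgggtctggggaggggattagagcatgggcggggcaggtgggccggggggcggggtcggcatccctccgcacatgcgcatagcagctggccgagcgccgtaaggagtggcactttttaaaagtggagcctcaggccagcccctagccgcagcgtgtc
Fcer2a: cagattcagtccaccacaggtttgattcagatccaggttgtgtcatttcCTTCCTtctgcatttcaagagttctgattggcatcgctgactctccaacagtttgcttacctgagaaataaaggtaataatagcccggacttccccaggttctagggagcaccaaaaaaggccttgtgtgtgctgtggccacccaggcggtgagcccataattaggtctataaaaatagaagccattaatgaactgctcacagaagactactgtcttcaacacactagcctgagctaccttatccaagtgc
Ccr6: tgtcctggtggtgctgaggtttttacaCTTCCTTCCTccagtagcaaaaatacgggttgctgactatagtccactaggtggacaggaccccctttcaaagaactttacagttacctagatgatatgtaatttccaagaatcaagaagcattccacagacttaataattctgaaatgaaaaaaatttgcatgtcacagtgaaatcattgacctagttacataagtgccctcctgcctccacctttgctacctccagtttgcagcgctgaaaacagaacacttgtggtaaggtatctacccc
A window was found for 212 of the 294 higher genes and 86 of the 115 lower genes that carry a symbol outside the immunoglobulin segments, with up to several windows per gene. The kB motif was in 6.99% of 286 windows of genes that were higher in activated cells, in 5.93% of 118 windows of lower genes, and in 6.32% of 11512 windows of all genes tested. The ETS motif was in 40.2%, 45.8% and 34.1% of the same windows, and in 35.4% of all 32851 windows in the reference table. A match of such short letters is a description of the window, not a binding site.

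Antibody heavy chain genes were among the largest changes by fold. The constant genes lie together on chromosome 12, and class switching replaces IgM and IgD by a downstream class. Of 7 tested, 4 rose and 1 (Ighd) fell, against 2.62% higher and 0.853% lower over all genes. Igha (chromosome 12, 113254830 to 113260236), the constant region of IgA, was at 506, 434 and 505 CPM in activated replicates 2, 3 and 5, against 11.9, 20.7 and 22 CPM in naive ones (log2 4.72, SE 0.254, adjusted p = 1.01e-06). All 3 activated libraries were alike, and the difference was 26.3-fold. Ighg1 (chromosome 12, 113325240 to 113330523), of IgG1, was at 309.9, 162 and 101 CPM in activated cells and 1.14, 1.24 and 2.2 CPM in naive cells (log2 6.92, SE 0.455, adjusted p = 6.3e-06). Ighg3, of IgG3, was at 162, 180.2 and 74.7 CPM in activated cells and 12.1, 12.4 and 8.23 CPM in naive cells (log2 3.67, SE 0.323, adjusted p = 7.61e-05). Both were far apart between groups in every library. Ighm, of IgM, was at 15417, 16952 and 13468 CPM in activated cells, against 7436, 7969 and 7211 CPM in naive cells (log2 1.01, SE 0.209, adjusted p = 0.0173). The call of Ighm was lost without activated replicate 2 (adjusted p = 0.0892), naive replicate 2 (adjusted p = 0.119) or naive replicate 5 (adjusted p = 0.0743).

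Ighg2b and Ighg2c varied most between replicate numbers. Ighg2c was at 97.4, 1944 and 24.8 CPM in activated replicates 2, 3 and 5, against 2.06, 37.8 and 0.574 CPM in naive replicates 2, 3 and 5, and Ighg2b at 247, 1689.8 and 184 CPM in activated cells and 11.1, 29.5 and 7.09 CPM in naive cells. Replicate 3 was the highest library of both genes in activated and in naive cells, and for Ighg2c the groups overlapped. Without a block neither passed the test (log2 5.47, SE 1.34, adjusted p = 0.152 for Ighg2b and log2 5.68, SE 2.64, adjusted p = 0.466 for Ighg2c). With the replicate number as a block both did (adjusted p = 4.02e-06 and 4.88e-08), and without activated replicate 3 Ighg2b was called as well (log2 3.77, adjusted p = 0.0287). The IgG constant genes are near-identical in places, so reads can be split or lost between them and each level is uncertain. Ighe, of IgE, did not pass the filter on low counts, with 0.764, 0.475 and 0.362 CPM in activated cells and 0, 0.248 and 0 CPM in naive cells.

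As a share of counts on the 8 heavy chain constant genes, the switched classes (IgG, IgA and IgE) took 7.39%, 19.4% and 5.67% in activated replicates 2, 3 and 5, against 0.326%, 0.835% and 0.357% in naive ones. The groups did not overlap, and the difference was 10.3 percentage points (10.8% ± 7.49 in activated and 0.506% ± 0.285 in naive cells, SD, n = 3 each). In an exact two-sided permutation test p was 0.1, the smallest that 3 against 3 can give. IgD took 6.95% ± 1.32 in activated cells and 35.3% ± 1.26 in naive cells, and IgM 82.2% ± 6.55 in activated cells and 64.2% ± 0.992 in naive cells. Of the switched classes, IgA held 2.83%, 1.91% and 3.22% in activated libraries and 0.101%, 0.17% and 0.196% in naive libraries. In activated replicate 3, IgG2b and IgG2c held 7.44% and 8.56%, each more than all switched classes together in activated replicate 2 or 5. Such shares count amplified reads, not cells, and plasma cells hold far more antibody RNA per cell than B cells. Counts per constant gene also do not show whether a read came from a switched transcript.

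**Figure D2:**
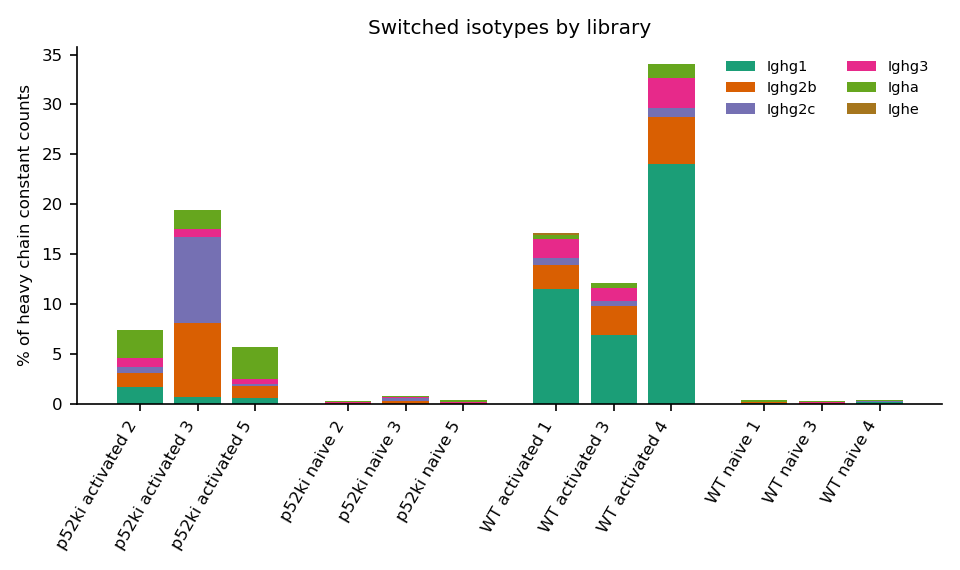
Shares of the 6 switched constant genes among counts on the 8 heavy chain constant genes, in percent, for each library, with p52ki before WT and activated before naive libraries. In p52ki cells the switched share was 5.67% to 19.4% in activated libraries and 0.326% to 0.835% in naive libraries.

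Variable segments rose on all 3 antibody loci. Of heavy chain segments 27 of 93 rose, of kappa segments 26 of 102 and of lambda segments 2 of 3, and 0 fell. These counts stand against 2.62% higher over all genes. Heavy chain segments took 0.225%, 0.282% and 0.164% of all counts in activated replicates 2, 3 and 5, against 0.103%, 0.106% and 0.105% in naive ones. The most abundant heavy segment differed between the activated libraries: it was Ighv6-6 in replicate 2, Ighv3-6 in replicate 3 and Ighv6-3 in replicate 5, with 7.7%, 9.24% and 5.7% of heavy segment counts. In all 3 naive libraries it was Ighv1-26, with 4.91% to 5.09%. Lambda constant genes took 35.1%, 27.1% and 31.9% of light chain constant counts in activated libraries and 26.8%, 27.4% and 25.2% in naive ones, so that activated replicate 3 fell within the naive range. Segments of a family share sequence, and their levels are uncertain for that reason.

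Plasma cell genes rose in part. Of 17 tested, 8 rose and 0 fell, against 2.62% higher and 0.853% lower over all genes, with a median log2 change of 0.76. Jchain (chromosome 5, 88519809 to 88527891), which joins IgM and IgA into polymers, was at 1613, 2808 and 1342 CPM in activated replicates 2, 3 and 5, against 10.2, 30.9 and 10.4 CPM in naive ones. The difference was 112-fold (log2 6.80, SE 0.491, adjusted p = 1.34e-05), with every activated library far above every naive one. Prdm1 (chromosome 10, 44437177 to 44528501), which encodes the plasma cell regulator Blimp-1, was at 8.12, 13.8 and 7.59 CPM in activated cells, against 1.26, 2.36 and 2.11 CPM in naive cells (log2 2.35, SE 0.389, adjusted p = 0.0044). Eaf2, an elongation factor of germinal centre and plasma cells, was at 38, 59.5 and 19.4 CPM in activated cells and 5.04, 9.18 and 2.97 CPM in naive cells (log2 2.77, SE 0.435, adjusted p = 0.00317). The groups did not overlap in either gene. Tnfrsf17, which encodes the plasma cell survival receptor BCMA, had 81 counts in the 3 activated libraries together and 1 in the 3 naive ones, a ratio of 80.2 per library size with an exact 95% counting interval of 14 to 3210. The other 4 were Ly6c2, Cd93, Mzb1 and Cd28. Xbp1, the factor that expands the secretory apparatus, was at 282 ± 75.9 CPM in activated cells and 197 ± 13.6 CPM in naive cells (log2 0.51, adjusted p = 0.254), and Sdc1, which encodes the plasma cell surface marker CD138, at 20.2 ± 4.85 and 14.9 ± 4.73 CPM (log2 0.43, adjusted p = 0.557). Neither passed the test, nor did Irf4, a factor of activated B cells and plasma cells, with 95.8, 75.3 and 73.1 CPM in activated cells and 106, 89.5 and 73.5 CPM in naive cells (log2 -0.14, adjusted p = 0.819). Of 28 genes of protein folding and secretion in the endoplasmic reticulum only Derl3 rose (22.6, 33.6 and 21.6 CPM in activated cells against 5.15, 7.45 and 7.37 CPM in naive cells; log2 1.95, SE 0.272, adjusted p = 0.00134), and with the replicate block 5 did.

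**Figure D3:**
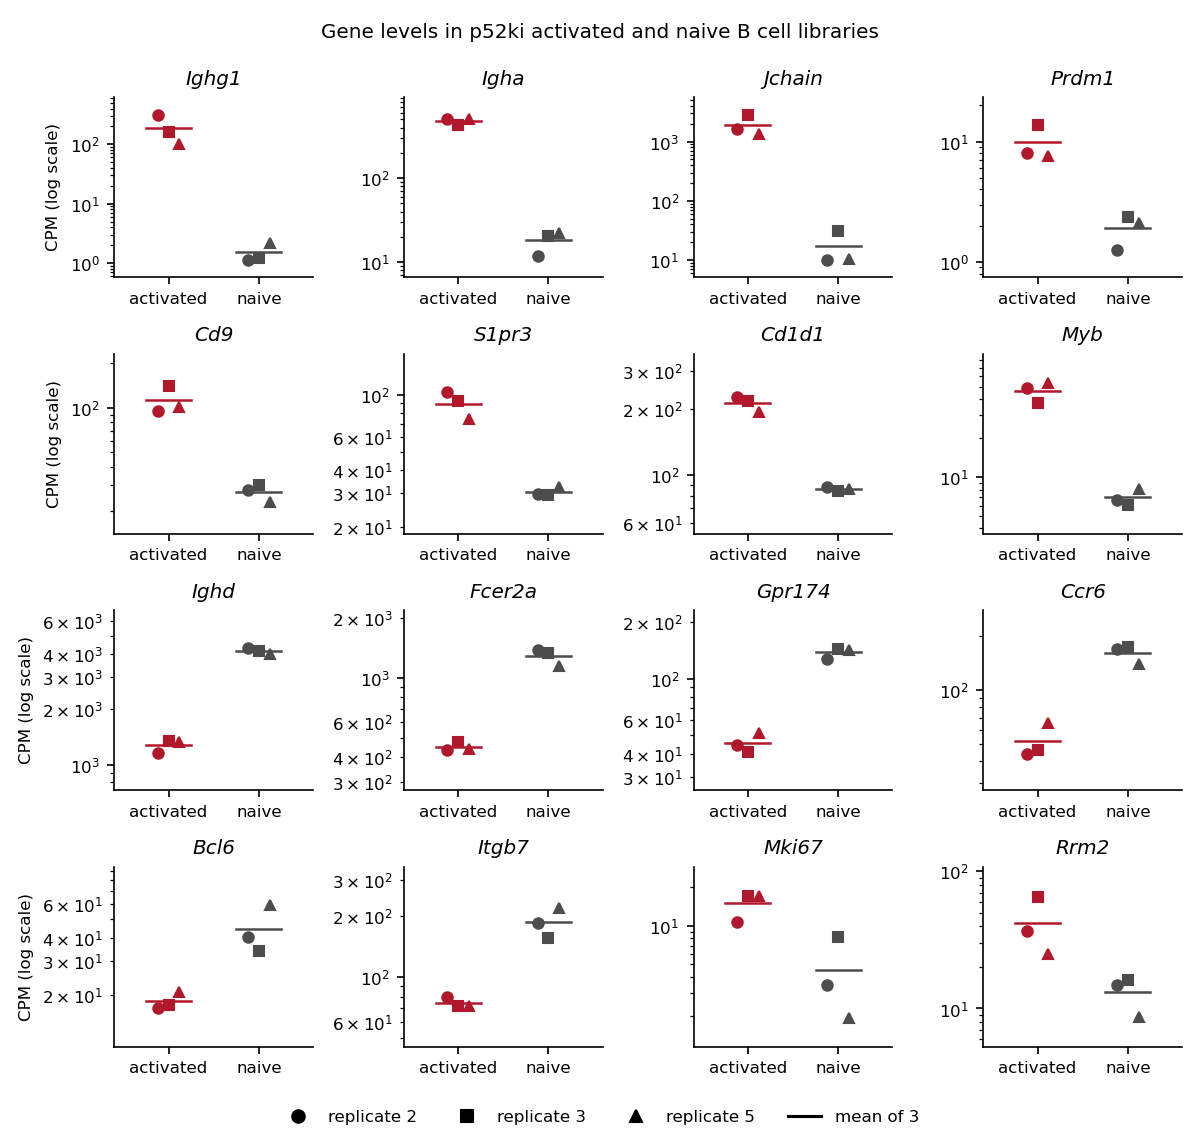
CPM on a log axis of 16 genes in each of the 3 activated and 3 naive p52ki libraries, with marker shapes for replicates 2, 3 and 5 and lines at the means. Antibody, plasma cell, marginal zone and cell cycle genes and Myb were higher in activated cells (Jchain averaged 1921 CPM against 17.2), and Ighd, Fcer2a, Gpr174, Ccr6, Bcl6 and Itgb7 were lower.

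Germinal centre genes moved in both directions. Of 22 tested, 2 rose and 2 fell, against 2.62% higher and 0.853% lower over all genes, with a median log2 change of 0.35. Most changes were positive, 17 against 5 negative. In 6 members every activated library was above every naive one, and in 3 below, where 19.2% of all genes had no overlap, in either direction. Rgs13, a brake on chemokine receptor signals in germinal centre cells, was at 27.9, 52.2 and 26.5 CPM in activated replicates 2, 3 and 5, against 5.49, 6.95 and 2.39 CPM in naive ones (log2 2.85, SE 0.38, adjusted p = 0.00102). It was highest in activated replicate 3, and no activated library was as low as a naive one. Bcl6 (chromosome 16, 23965052 to 23988852), the repressor on which germinal centre cells depend, fell, with 17, 17.7 and 20.7 CPM in activated cells against 40.3, 33.9 and 59.1 CPM in naive cells (log2 -1.27, SE 0.237, adjusted p = 0.0097). Lmo2, an adaptor protein of germinal centre cells, was at 167, 161 and 179.8 CPM in activated cells and 346, 335 and 326 CPM in naive cells (log2 -0.99, SE 0.163, adjusted p = 0.00406). The groups were apart in both, although the call of Bcl6 was lost without activated replicate 2 (adjusted p = 0.0524). Among genes of switching and hypermutation, Nbn, of the complex that senses DNA breaks, fell (21.1, 28.4 and 24.2 CPM in activated cells against 46, 41 and 43.7 CPM in naive cells; log2 -0.83, SE 0.199, adjusted p = 0.036). The call of Nbn was lost without activated replicate 2 or 5 or naive replicate 2 or 5 (adjusted p of 0.178, 0.0721, 0.183 and 0.103). Of 18 memory B cell genes, Zbtb32, Ptpn22 and Nt5e rose and Ccr6 fell. Nt5e, which encodes CD73, was at 3.63, 5.23 and 6.39 CPM in activated cells and 0, 0.869 and 0.0957 CPM in naive cells (log2 4.002, SE 0.761, adjusted p = 0.0113).

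The NF-kB and ETS genes themselves were not called. Of 11 NF-kB subunits and inhibitors 0 passed, with a median log2 change of -0.18. With 3.48% of all genes called, a count of 0 in lists as short as these is near the share over all genes. Nfkb2 (chromosome 19, 46304320 to 46312385), the source of p52, was at 133, 110.3 and 121 CPM in activated replicates 2, 3 and 5, against 169.5, 131 and 208 CPM in naive ones (log2 -0.48, SE 0.193, adjusted p = 0.254). Its partner Relb was at 56.9, 63.3 and 53.1 CPM in activated cells and 66.5, 67.4 and 75.3 CPM in naive cells (log2 -0.28, SE 0.176, adjusted p = 0.553). Activated replicate 2 overlapped the naive range for Nfkb2, while for Relb all activated libraries were lower. Rela (128, 128 and 107 CPM in activated cells and 149.6, 146 and 179 CPM in naive cells; log2 -0.39, adjusted p = 0.313) was lower in every activated library and did not pass either. Nfkb1 (108 ± 39.6 CPM in activated and 103 ± 7.16 CPM in naive cells, SD, n = 3 each; log2 0.07, adjusted p = 0.938) and Rel (log2 -0.08, adjusted p = 0.891) overlapped between groups. By edgeR's test 2 of the 11 had an unadjusted p under 0.05, and 0 were called by DESeq2, by limma voom or with the replicate block. Among 17 kinases and adaptors upstream of NF-kB 0 were called, and with the block 2 were lower, Ikbkb (log2 -0.50, adjusted p = 0.0344) and Traf5 (log2 -0.52, adjusted p = 0.0487). Of 21 NF-kB target genes 2 rose. Myb (chromosome 10, 21124935 to 21160984), a transcription factor of dividing progenitors, was at 49, 37.1 and 53.6 CPM in activated cells, against 6.64, 6.08 and 8.14 CPM in naive cells (log2 2.73, SE 0.239, adjusted p = 7.61e-05), with no overlap. Ccl22, a chemokine that attracts T cells, was at 2.96, 2.49 and 2.29 CPM in activated cells and 0.572, 0.372 and 0 CPM in naive cells (log2 3.04, SE 0.751, adjusted p = 0.0418), and it was not called when any 1 of the 6 libraries was left out (adjusted p of 0.0702 to 0.166). The block called 3 targets lower. Of 14 ETS factors 0 were called and 12 had a negative change, with a median of -0.16. Ets1 (chromosome 9, 32636221 to 32757820) was at 496, 364 and 471 CPM in activated cells and 622, 492 and 638 CPM in naive cells (log2 -0.40, SE 0.19, adjusted p = 0.373), and activated replicate 2 lay above the lowest naive library. Spib, an ETS factor of B cell identity, was at 578, 442 and 524 CPM in activated cells and 338, 306 and 427 CPM in naive cells (log2 0.52, adjusted p = 0.193), without overlap, and it was called higher with the block (adjusted p = 0.0411). By edgeR's test 1 of the 14 had an unadjusted p under 0.05, and limma voom called 1 higher and DESeq2 0.

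Genes of migration moved in both directions. Of 21 tested, 6 fell and 2 rose, against 0.853% lower and 2.62% higher over all genes. Beside Ccr6 and Cxcr5, described above, they included Gpr174, Itgb7 and Gpr183. Gpr174 (chromosome X, 107255878 to 107296769), a receptor for lysophosphatidylserine, was at 44.2, 40.7 and 51.2 CPM in activated replicates 2, 3 and 5, against 128, 144 and 142 CPM in naive ones (log2 -1.61, SE 0.178, adjusted p = 0.00028). Itgb7 (chromosome 15, 102215995 to 102231944), the integrin chain of gut homing, was at 79.7, 71.9 and 72.2 CPM in activated cells and 184, 155 and 218 CPM in naive cells (log2 -1.32, SE 0.18, adjusted p = 0.00113). No activated library of either reached the naive range. Gpr183, which guides B cells to the outer follicle, fell less (139, 238 and 135 CPM in activated cells against 308, 367 and 284 CPM in naive cells; log2 -0.91, adjusted p = 0.0472). Of the 2 that rose, S1pr3 is described above, and Ackr3, a scavenger of chemokines, was at 28.3, 40.2 and 17.4 CPM in activated cells and 5.61, 9.31 and 2.3 CPM in naive cells (log2 2.33, SE 0.428, adjusted p = 0.00895). With 1 library left out, 4 to 5 were called lower and 1 to 3 higher.

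Mitosis genes were higher as a group. All 42 had a positive change with a median log2 of 1.18. Of them 13 rose and 0 fell, against 2.62% higher and 0.853% lower over all genes. For 34 of them every activated library was above every naive one. Over all genes tested, 19.2% had no overlap, in either direction. Nusap1, which binds spindle microtubules, was at 28.1, 44.1 and 26.4 CPM in activated replicates 2, 3 and 5, against 9.96, 7.94 and 5.74 CPM in naive ones (log2 2.06, SE 0.284, adjusted p = 0.00128). Cdk1, the kinase that drives mitosis, was at 11.4, 17.8 and 10.8 CPM in activated cells and 3.78, 3.97 and 2.01 CPM in naive cells (log2 2.04, SE 0.35, adjusted p = 0.00589). Mki67 (chromosome 7, 135689784 to 135716361), which encodes the proliferation antigen Ki-67, was at 10.7, 17.1 and 16.9 CPM in activated cells and 3.43, 8.19 and 1.91 CPM in naive cells (log2 1.73, SE 0.435, adjusted p = 0.0468). The groups were apart in these 3 genes, and naive replicate 3 was the highest naive library for Cdk1 and Mki67. Mki67 was not called when any library but naive replicate 3 was left out, with adjusted p of 0.0623 to 0.228. The count of 13 was 5 without activated replicate 2, 4 without activated replicate 3, and 2 without naive replicate 2 or 5, and it was 21 with the replicate block. Of 40 DNA replication genes 4 rose and 0 fell, with a median of 0.37. Rrm2, a subunit of the enzyme that makes deoxynucleotides, was at 36.9, 64.9 and 25.1 CPM in activated cells and 14.9, 16.1 and 8.71 CPM in naive cells (log2 1.67, SE 0.339, adjusted p = 0.0162). Cdc6, which loads the replicative helicase (log2 2.12, adjusted p = 0.0167), Pclaf, a partner of PCNA (log2 1.93, adjusted p = 0.0171), and Tyms, thymidylate synthase (log2 1.16, adjusted p = 0.0401), were the others. The count of 4 was 2 without activated replicate 2, 0 without naive replicate 2 and 1 without naive replicate 5. Ccnd2, a D-type cyclin of B cells, was the only member called among 21 genes of MYC, cyclins and inhibitors (187, 165 and 237 CPM in activated cells against 88.8, 83.3 and 71.1 CPM in naive cells; log2 1.27, SE 0.189, adjusted p = 0.00231). Myc overlapped between groups (291, 296 and 148 CPM in activated cells and 229, 252 and 103 CPM in naive cells; log2 0.33, adjusted p = 0.736).

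**Figure D4:**
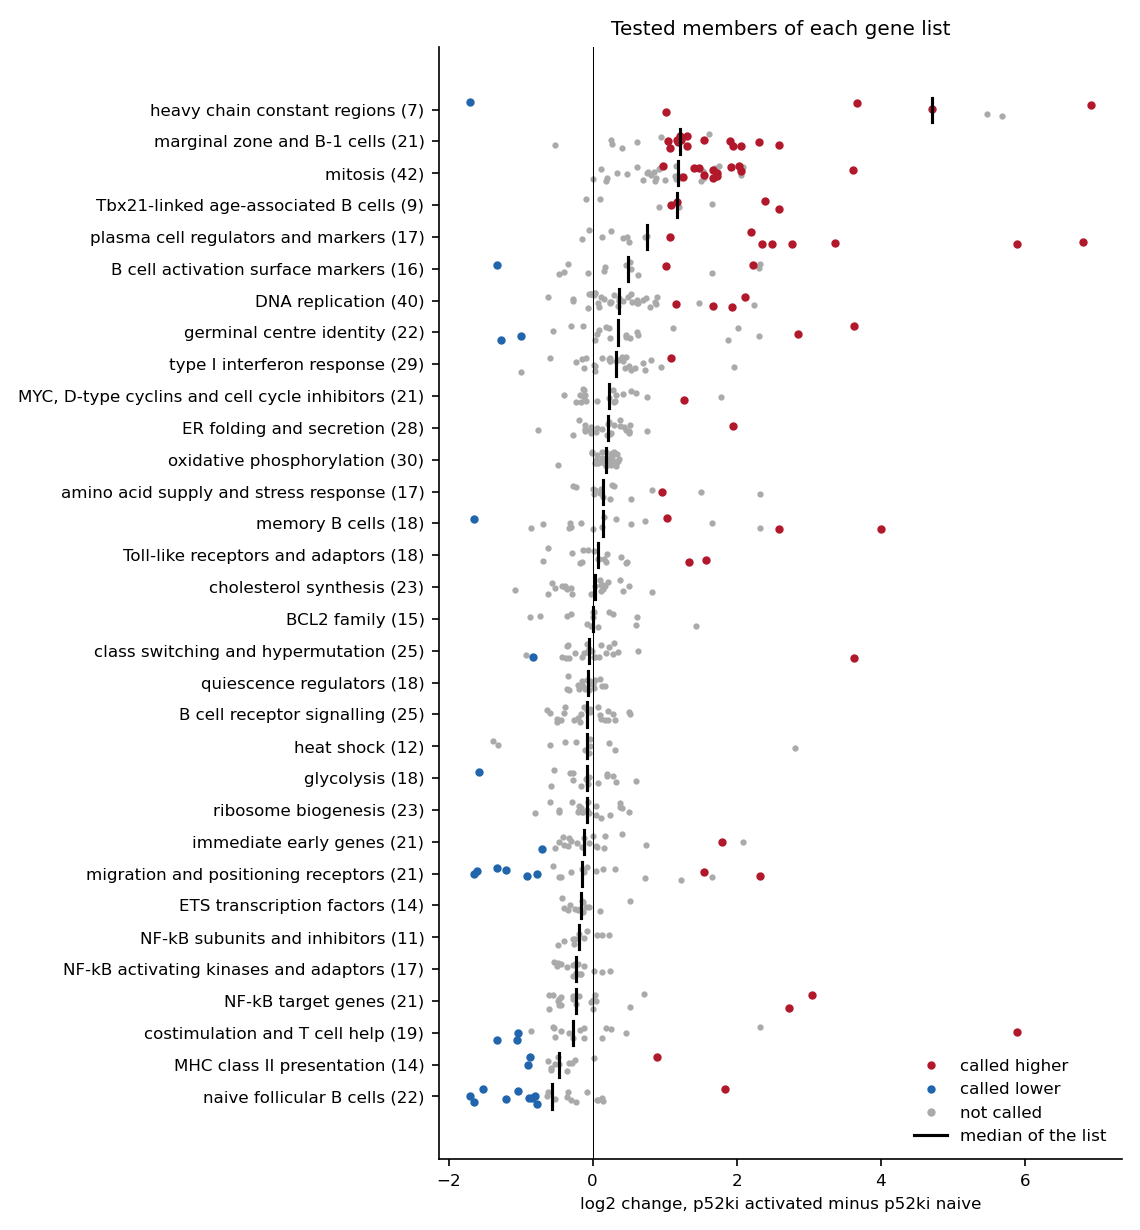
Log2 change (activated minus naive, x axis) of the tested members of 32 gene lists, ordered by the median, which a black bar marks, with the number tested in brackets. Red and blue points are members called higher and lower. The heavy chain constant list had the highest median, 4.72, and the naive follicular list the lowest, -0.57.

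The usual surface marks of an acute activation were mixed. Of 16, 2 rose and 1 fell, against 2.62% higher and 0.853% lower over all genes. The median log2 change was 0.49, with 11 changes positive and 5 negative. In 6 members every activated library was above every naive one, and in 1 below, where 19.2% of all genes had no overlap, in either direction. Cd24a, a small adhesion protein, was at 1368, 1431 and 1234 CPM in activated replicates 2, 3 and 5, against 679.6, 801 and 510.4 CPM in naive ones (log2 1.01, SE 0.208, adjusted p = 0.017). Il2ra, which encodes CD25, the alpha chain of the interleukin-2 receptor, was at 12.3, 13.3 and 3.86 CPM in activated cells and 3.66, 1.74 and 0.957 CPM in naive cells (log2 2.22, SE 0.53, adjusted p = 0.0356). Icosl (chromosome 10, 78069302 to 78083913), the ligand of ICOS on helper T cells, fell, with 111, 133 and 127 CPM in activated cells and 287, 277 and 366 CPM in naive cells (log2 -1.33, SE 0.18, adjusted p = 0.00113). The groups did not overlap in these 3 genes. Cd24a was not called without activated replicate 2 or naive replicate 2 or 5 (adjusted p of 0.0712, 0.107 and 0.0839), and Il2ra without activated replicate 2 or 3 or naive replicate 3 or 5 (adjusted p of 0.128, 0.0975, 0.0931 and 0.112). The early activation antigen Cd69 was at 602, 798 and 324 CPM in activated cells and 789, 922 and 458 CPM in naive cells (log2 -0.34, adjusted p = 0.717), and the costimulator Cd86 at 102, 131 and 84.4 and 79.3, 89.8 and 60.4 CPM (log2 0.46, adjusted p = 0.358). Cd83, another activation marker, was at 388, 609 and 344 CPM in activated cells and 594, 704 and 549 CPM in naive cells (log2 -0.47, adjusted p = 0.382; adjusted p = 0.0487 with the replicate block). All 3 overlapped between the groups. Among 21 immediate early genes Dusp5, a phosphatase that acts on ERK, rose (log2 1.796, adjusted p = 0.00976) and Jun, a part of AP-1, fell (log2 -0.70, adjusted p = 0.048). Dusp5 was not called without naive replicate 2 (adjusted p = 0.0509), nor Jun when any 1 library was left out (adjusted p of 0.0504 to 0.239).

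Most genes of MHC class II presentation had a negative change. Of 14, 2 fell and 1 rose, against 0.853% lower and 2.62% higher over all genes. The median log2 change was -0.47, with 12 changes negative and 2 positive. In 7 members every activated library was below every naive one, and in 1 above, where 19.2% of all genes had no overlap, in either direction. With the replicate block 6 fell. Ciita, the regulator that switches on class II genes, was at 195, 182 and 236 CPM in activated replicates 2, 3 and 5, against 393, 362 and 362 CPM in naive ones (log2 -0.87, SE 0.173, adjusted p = 0.0144). H2-DMb1, of the complex that loads peptide, was at 125, 153 and 137 CPM in activated cells and 267, 274 and 233 CPM in naive cells (log2 -0.90, SE 0.171, adjusted p = 0.011). The groups were apart in both, and neither call held without activated replicate 2 (adjusted p of 0.0832 for Ciita and 0.0737 for H2-DMb1) or naive replicate 2 (adjusted p of 0.107 and 0.073). H2-Aa (log2 -0.63, adjusted p = 0.209) and H2-Ab1 (log2 -0.58, adjusted p = 0.234), the chains of a class II molecule, did not pass. Ifi30, a lysosomal reductase that unfolds antigen, rose (log2 0.90, adjusted p = 0.0183), but not without activated replicate 2 or naive replicate 2 or 5 (adjusted p of 0.0723, 0.126 and 0.0986). Among 19 genes of costimulation and T cell help Icosl, Il4ra and Il21r fell and Tnfrsf17 rose. Il4ra, of the interleukin-4 receptor, was at 115, 79 and 83.2 CPM in activated cells and 204, 142 and 223 CPM in naive cells (log2 -1.04, SE 0.213, adjusted p = 0.017). Il21r, the receptor of the helper cytokine interleukin-21, was at 101, 79.7 and 83 CPM in activated cells and 186, 127 and 236 CPM in naive cells (log2 -1.06, SE 0.22, adjusted p = 0.0184). Neither was called without activated replicate 5 (adjusted p of 0.0558 for Il4ra and 0.0561 for Il21r), naive replicate 2 (0.107 and 0.0948) or naive replicate 5 (0.0708 and 0.081).

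Metabolic and signalling lists held 0 to 2 calls each, where 3.48% of all genes were called, so these counts say little about any list. None of 25 genes of B cell receptor signalling, 15 of the BCL2 family, 30 of oxidative phosphorylation, 23 of cholesterol synthesis, 23 of ribosome biogenesis, 18 quiescence regulators or 12 heat shock genes was called by edgeR's test, while 6, 4, 1, 5, 3, 0 and 1 of them had an unadjusted p under 0.05. With the block, 2 rose and 3 fell in B cell receptor signalling, 1 rose and 1 fell in the BCL2 family, 2 fell in cholesterol synthesis, 1 rose and 2 fell among heat shock genes, and 0 in the other 3 lists. DESeq2 called 1 higher and 1 lower in B cell receptor signalling, 1 higher in the BCL2 family, 1 lower in cholesterol synthesis and 1 higher among heat shock genes, and limma voom called 1 to 2 members in 5 of the 7 lists. Siglecg, an inhibitory receptor of B cells, was at 810.0, 752 and 801 CPM in activated replicates 2, 3 and 5 and 556, 508 and 579.8 CPM in naive ones (log2 0.52, SE 0.171, adjusted p = 0.14). Cd22, another such receptor, was at 618, 501 and 573 CPM in activated cells and 869, 724 and 1031 CPM in naive cells (log2 -0.64, SE 0.192, adjusted p = 0.102). In both the groups were apart, and both were called with the block (adjusted p = 0.0282 and 0.0174). Single members were called in other lists: Psat1 of serine synthesis rose (log2 0.97, adjusted p = 0.0279), the glycolytic aldolase Aldoc fell (log2 -1.58, adjusted p = 0.0282), and the antiviral gene Rsad2 rose among 29 interferon response genes (log2 1.09, adjusted p = 0.042). Ly96, the partner of Tlr4 (log2 1.34, adjusted p = 0.017), and Tlr3, a sensor of double-stranded RNA (log2 1.57, adjusted p = 0.03), rose among 18 Toll-like receptor genes. These 5 calls were lost when some single libraries were left out, naive replicate 2 among them for all 5 (adjusted p of 0.183, 0.144, 0.0883, 0.124 and 0.172 in the same order).

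Markers of other cell types were low and partly higher in activated libraries. The calls below stand against 2.62% higher and 0.853% lower over all genes. T cell markers summed to 24 to 65.3 CPM in activated libraries and 7.56 to 20 CPM in naive libraries, with 11 of 11 tested changes positive and 2 called, Il7r (log2 3.71, adjusted p = 0.0115) and Cd28 (log2 3.37, adjusted p = 0.023). Cd28 is also a plasma cell gene, and it was not called without activated replicate 2 or 3 or naive replicate 3 (adjusted p of 0.0733, 0.0643 and 0.066). The T cell receptor genes Trac, Trbc1 and Trbc2 were above every naive library in activated replicates 2 and 3. In activated replicate 5 they were at 0.964, 0.964 and 1.57 CPM, within the naive ranges of 0.957 to 3.47, 0.766 to 1.86 and 0.766 to 2.11 CPM. The sum of macrophage, monocyte and dendritic cell markers was 131 to 216 CPM in activated libraries and 71 to 105 CPM in naive libraries, with Ly6c2 alone called of 13 (log2 2.49, adjusted p = 0.00108). Plasma cells also express Ly6c2, which shares sequence with Ly6c1, so its level is uncertain. NK cell markers, with 0 of 8 called, summed to 28.1 to 71.2 CPM in activated and 23.1 to 35.4 CPM in naive libraries, and erythroid and platelet markers to 155 to 190 and 90 to 121 CPM, with 2 of 7 called (Hbb-bt and Hba-a1). Hba-a1 and Hba-a2 are near-identical, and neither called globin was called without naive replicate 2 (adjusted p of 0.125 for Hbb-bt and 0.283 for Hba-a1). Of these 7 markers 5 were higher in every activated library than in any naive one, and 2, Car2 and Alas2, were lower. Over all genes tested, 19.2% had no overlap, in either direction. Car2 was at 12.7, 25.3 and 17.8 CPM in activated replicates 2, 3 and 5 and 29.5, 35.1 and 26.2 CPM in naive ones. The sums of stromal and endothelial markers went the other way from the sums above, with 114 to 161 CPM in activated libraries and 152 to 214 CPM in naive libraries. Most of that sum was Pecam1, an adhesion protein that B cells and other leukocytes also carry (161, 117 and 113 CPM in activated replicates 2, 3 and 5 and 207, 152 and 213 CPM in naive ones; log2 -0.55, adjusted p = 0.191; adjusted p = 0.0452 with the replicate block). The endothelial marker Kdr and the stromal markers Col1a1, Col3a1 and Pdgfrb were at 0 in all 6 libraries. Cdh5, another endothelial marker, was at 0.477, 0.713 and 0.362 CPM in activated replicates 2, 3 and 5 and 0.916, 0.248 and 0.287 CPM in naive ones. The stromal markers Cxcl12, Cxcl13 and Col1a2 were above 0 in some of the libraries. With the block 4 T cell, 3 myeloid, 1 NK cell (Ccl5, adjusted p = 0.0376) and 4 erythroid or platelet markers were called higher, and DESeq2 and limma voom called 1 and 3 NK cell markers. The sums of T cell, myeloid, and erythroid and platelet markers did not overlap between the groups, and the part of any of these markers in the results above was not tested.

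Outside the lists, the rule for named genes added secreted and little-studied proteins. Wfdc21, a small secreted protein of the whey acidic protein family, was at 19.5, 30.5 and 19.3 CPM in activated replicates 2, 3 and 5, against 1.6, 1.49 and 1.44 CPM in naive ones (log2 3.92, SE 0.317, adjusted p = 4.12e-05). Egfl6, a secreted protein with EGF repeats, was at 13.7, 7.37 and 11.9 CPM in activated cells and 0.229, 0.869 and 0.67 CPM in naive cells (log2 4.19, SE 0.469, adjusted p = 0.00028). AF067061 was at 11.7, 15.7 and 14.3 CPM in activated cells and 0.916, 1.61 and 0.479 CPM in naive cells (log2 3.81, SE 0.41, adjusted p = 0.000277). In each the activated libraries were several times the highest naive one. Prg2, best known as the granule protein of eosinophils, had 308 counts in the 3 activated libraries together and 3 in the naive ones, a ratio of 102 per library size (exact 95% counting interval 34.5 to 496). Stc1, a secreted glycoprotein of mineral balance, had 153 counts in activated libraries and 1 in naive libraries, a ratio of 151 (26.8 to 6020). These intervals cover counting error only. Among the lower genes, Rflnb, a binding partner of filamin, was at 4.87, 5.94 and 10.4 CPM in activated cells and 35.3, 37.7 and 43.5 CPM in naive cells (log2 -2.47, SE 0.282, adjusted p = 0.000325). Stat4, a transducer of interleukin-12 signals, was at 18.1, 30.7 and 18 CPM in activated cells and 52.8, 69.7 and 76.7 CPM in naive cells (log2 -1.58, SE 0.248, adjusted p = 0.00317). Pxdc1 was at 80.7, 120.2 and 89.1 CPM in activated cells and 301, 298 and 285 CPM in naive cells (log2 -1.61, SE 0.19, adjusted p = 0.000371). No library of one group reached the other in these 3 genes. Rab6b, Rph3al, Mapk12 and the noncoding AC141471.5 were at 1.32 to 4.83 CPM on average in activated cells and 6.76 to 16.3 CPM in naive cells. These 4 calls were lost without activated replicate 2 (adjusted p of 0.0612, 0.0653, 0.0564 and 0.0723).

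The same change was measured in WT cells, which share no library with p52ki, to ask whether it differs between the genotypes. In WT 352 of 13445 genes (2.62%) were called by the same test. Of 335 genes higher in activated p52ki cells and tested in both genotypes, 335 had a positive change in WT and 187 were called higher there, with a median log2 change of 1.67 in p52ki and 1.79 in WT. Of 113 lower genes 113 had a negative change in WT and 48 were called lower, with medians of -1.08 in p52ki and -0.996 in WT. Over all 13140 genes tested in both, 49.3% had a positive change in WT. The 235 genes called in the same direction in both were 49.7% of the p52ki calls and 66.8% of the WT calls. Across genes, which are not independent replicates, the changes had a Pearson r of 0.756.

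The test of the difference itself, in 1 fit of the 12 libraries, called 0 of 14348 genes (0%) by edgeR's test. At an unadjusted p under 0.05 there were 247. DESeq2 called 3, all smaller rises in p52ki (Alpl, Ighv1-72 and Ighv1-62-3, the segments named after their values were seen), and limma voom 0. The 0 calls do not show that the genotypes respond alike. Library numbers run from 1 to 11 in the WT and from 19 to 29 in the p52ki libraries, so a batch in that order and the genotype cannot be told apart. Alpl, tissue-nonspecific alkaline phosphatase, rose less in p52ki: it was at 23.7, 16.8 and 17.7 CPM in activated and 8.01, 4.47 and 8.9 CPM in naive p52ki replicates 2, 3 and 5, against 22.5, 26.9 and 28.3 CPM in activated and 1.85, 2.48 and 0.639 CPM in naive WT replicates 1, 3 and 4. The log2 change was 1.43 in p52ki and 3.95 in WT, a difference of -2.51 (SE 0.504, adjusted p = 0.701), and the naive p52ki libraries lay above the naive WT ones. Ighg3 had log2 changes of 3.67 in p52ki and 6.22 in WT (difference -2.55, SE 0.666, adjusted p = 1), and the lambda constant gene Iglc1 of 2.05 and 3.89 (difference -1.82, SE 0.524, adjusted p = 1). Ighg1 differed by -1.63 (SE 1.12, adjusted p = 1). Lifr, the receptor of leukaemia inhibitory factor, had the opposite sign: it was at 14.2, 7.96 and 12.5 CPM in activated and 9.27, 1.99 and 4.79 CPM in naive p52ki libraries, against 9.05, 12.2 and 16.4 CPM in activated and 31.1, 20.3 and 25.8 CPM in naive WT libraries, a difference of 2.14 (SE 0.573, adjusted p = 1). None of these differences passed the correction in that fit. Without the filter on low counts edgeR called 16 genes, among them all 5 of these (adjusted p of 0.000338 for Alpl, 8.26e-12 for Ighg3, 5.75e-07 for Iglc1, 0.0123 for Ighg1 and 0.00311 for Lifr). That setting gave far smaller p-values at like changes. For the change of Ighg1 in p52ki alone, edgeR's adjusted p was 1.07e-104 without the filter (log2 6.91) and 6.3e-06 with it (log2 6.92). The p-values without the filter are therefore not stronger evidence of a difference between genotypes. DESeq2 called Alpl (adjusted p = 0.00176), and Iglc1 was called without WT activated replicate 3 (adjusted p = 0.0148). The switched share of heavy chain counts was 10.8% ± 7.49 in activated and 0.506% ± 0.285 in naive p52ki cells, against 21.1% ± 11.5 in activated and 0.336% ± 0.0609 in naive WT cells (SD, n = 3 each).

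**Figure D5:**
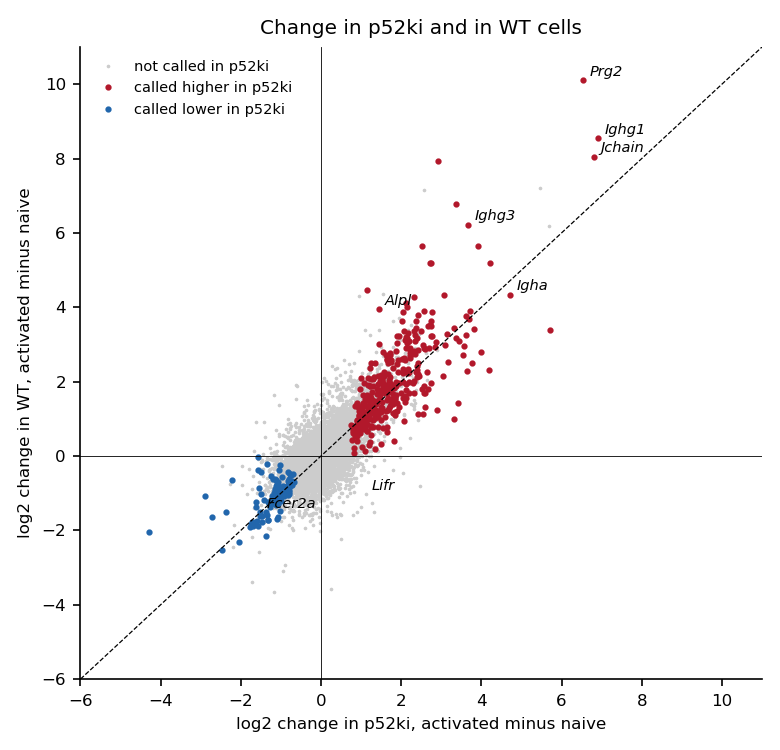
Log2 change from naive to activated cells (activated minus naive) of each of 13140 genes tested in both genotypes, p52ki on the x axis and WT on the y axis, with the line of equal change. Genes called in p52ki are coloured. All 335 higher and all 113 lower p52ki genes lie on the same side of 0 in WT.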

How the data were processed

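RNA from sorted spleen B cells was amplified with a SMART-Seq protocol for small amounts and sequenced in read pairs, per the labels' protocols. Reads were aligned with HISAT2 2.1.0 to GRCm38 and counted with featureCounts of Subread 1.6.2, with SAMtools 1.8, per the submitters' processing notes. The sources used here do not give the annotation release, the use of strand or the handling of reads with several matches. The deposited values are raw counts per gene for 17 libraries, and 55536 gene IDs were named and placed with GENCODE M21. No molecular identifiers are named, so counting intervals cover counting error only.

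The 6 p52ki libraries, with total counts of 8029313 to 10036347, were fitted alone with edgeR 4.0.16 in R 4.3.3. Genes were kept by filterByExpr with a minimum count of 10, scaled by TMM and tested with the robust quasi-likelihood test and Benjamini-Hochberg adjustment, at an adjusted p under 0.05. SE is a standard error of a log2 change derived from edgeR's test, as the absolute change divided by the square root of the F statistic. It is unreliable for changes near 0. The change in WT used its own 6 libraries, and the difference between genotypes an interaction term over 12. CPM were scaled by TMM over those 12 libraries. The code was tested on simulated data. Alternatives were DESeq2 1.42.0, limma 3.58.1 voom with quality weights, other scaling and filters, removal of immunoglobulin genes, fits of 12 or 17 libraries, each library left out, and the replicate number as a block.

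Same-numbered activated and naive libraries deviated together from their group means (correlations of 0.166, 0.388 and 0.14 in p52ki), although activated replicate 2 correlated more with naive replicate 5 (0.246) than with its own number. Every same-number value was over 0.1. The numbers come from the library names, and no label says that equal numbers are the same animal. The main fit, its SE and p-values and the permutation test therefore took no account of them. The fit with the number as a block is given as an alternative, and it called 900 genes against 473. Genes were named by a rule: up to 10 higher and 10 lower genes of largest change with at least 5 CPM and no overlap, up to 4 called members of each list (or the 2 of smallest p), fixed genes of activation and antibody classes, and up to 5 genes of smallest p in each direction for the difference between genotypes. Other genes given with values (Cxcr5, Gpr183, Ackr3, Tbx21, Xbp1, Sdc1, H2-Aa and H2-Ab1) are list members chosen after their values were seen. Some genes that the rule names are not reported here. The members and lists were chosen with earlier results of these data known.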

Additional observations from a re-analysis of the deposited data

How the results depend on the processing

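The 473 p52ki calls became 878 without the filter on low counts, 759 with DESeq2, 1191 with limma voom, 900 with the replicate block and 18 in the fit of all 17 libraries, and 166 to 461 with 1 library left out. Of the calls, 75.5% were higher, against 65.3% with limma voom and 61.8% with the block. For the difference between genotypes the 0 calls became 16 without the filter, 3 with DESeq2 and 1 with the block (Ighv1-72), and 0 to 4 with 1 library left out, 4 without WT activated replicate 3. The 352 WT calls became 958 without the filter, 749 with DESeq2, 1998 with limma voom and 604 in the 12-library fit, and 88 to 1142 with 1 library left out. The switched share differed by 0.21 points when taken over all counts, and by 6.03 to 12.9 points with 1 library left out. Signs turned for Ngp with limma voom (log2 -0.0999) and, with 1 library left out, for Rel (-0.209 to 0.0229), Ccr7 (-0.342 to 0.137) and Nfkb1 (-0.23 to 0.305), none of them called; the cause was not tested. Depth limits the low genes, such as Ighe and Ccl22, where a few counts set the value.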

Other observations

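Several genes outside the lists, chosen after their values were seen, were among the clearest differences in activated p52ki cells. Serpine2, a secreted protease inhibitor, was at 26.1, 37.2 and 31.1 CPM in activated replicates 2, 3 and 5, against 4.69, 4.47 and 5.17 CPM in naive ones (log2 2.71, SE 0.247, adjusted p = 8.5e-05). Wnt10a, a Wnt ligand, was at 11, 15 and 15.2 CPM in activated cells and 2.29, 2.11 and 2.11 CPM in naive cells (log2 2.65, SE 0.308, adjusted p = 0.000341). Tcf7, a transcription factor of the Wnt pathway and of T cells, was at 10.1, 7.25 and 10 CPM in activated cells and 2.06, 1.49 and 1.53 CPM in naive cells (log2 2.42, SE 0.353, adjusted p = 0.00193). In these 3 genes every activated library was above every naive one. The summed T cell markers were also higher in activated libraries, and their part in the value of Tcf7 was not tested. Gh, growth hormone, was at 13.5, 21.4 and 13.7 CPM in activated cells and 2.86, 1.74 and 0.957 CPM in naive cells (log2 3.13, SE 0.392, adjusted p = 0.000632). Lower genes included Lfng, which adds sugars to Notch receptors (log2 -1.52, adjusted p = 0.00589), Rara, a retinoic acid receptor (log2 -1.11, adjusted p = 0.00802), Neurl3 (log2 -1.34, adjusted p = 0.000703) and the GTPases Gimap3 (log2 -1.14, adjusted p = 0.00406) and Gimap4 (log2 -1.11, adjusted p = 0.00341).

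The heavy chain segment Ighv1-72, also chosen after its values were seen, was at 50.7, 36.8 and 39 CPM in activated and 19.3, 19.4 and 18.2 CPM in naive p52ki libraries, against 342, 199 and 910.3 CPM in activated and 24.6, 16.4 and 24.7 CPM in naive WT libraries. The difference of the change, p52ki minus WT, was -3.31 on the log2 scale (SE 0.56, adjusted p = 0.362 by edgeR's test), and it was called with DESeq2, with the replicate block (adjusted p = 0.0129) and without WT activated replicate 3.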
